A study of Mus musculus with 8 samples.

Results

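The 42 genes described here encode the machinery that copies DNA in S phase, and they were found by name among the 55933 genes of an FPKM table (fragments counted per kilobase and made comparable between libraries of unequal depth). Mammary epithelial cells were profiled by RNA-seq at pregnancy day 14.5 in 4 control and 4 cKO C57BL/6 female mice, with 1 library per mouse. The cKO mice carried K14-rtTA, teto-Cre and Bmpr1a fl/fl and received doxycycline in their drinking water, so that Cre was switched on in cells with K14 promoter activity, the myoepithelial cells. Controls were littermates that the sample labels call WT, and which of the alleles they carried or whether they drank doxycycline is not given in the sources used here. Cells were released with collagenase and hyaluronidase, red blood cells were lysed, and the preparation was not sorted, so each library held luminal cells, which this promoter does not target, together with myoepithelial cells. A lower value could therefore come from fewer cells in S phase or from less RNA in each of them, and these cannot be told apart in bulk RNA.

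DNA replication starts with licensing, in which the origin recognition complex, Cdc6 and Cdt1 load the ring-shaped Mcm2-7 helicase onto DNA in G1. At the start of S phase, Cdc45, the GINS complex and Mcm10 turn this ring into an active helicase, primase and the DNA polymerases copy the opened strands, and the sliding clamp Pcna holds the polymerases on the template. Fen1 and Lig1 finish the lagging strand, Chaf1a and Chaf1b place new nucleosomes, and Uhrf1 and Dnmt1 copy DNA methylation onto the new strand. Many of these genes are targets of E2F transcription factors, which cyclin E and its kinase help to release from the retinoblastoma protein. In the pregnant mammary gland, alveolar cells proliferate before they turn to milk production.

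Between 16123108 and 19896988 reads lay on genes in each library. Bmpr1a itself was not lower in the cKO libraries. Its level was 10.6, 11.7, 8.74 and 9.52 FPKM in control replicates 1 to 4 and 12.01, 12.03, 10.2 and 10.4 FPKM in cKO replicates 1 to 4, so this gene gives no check of the labels. Milk protein genes separated the groups, with summed levels of 6 genes of 4038 to 5910 FPKM in control and 8973 to 16023 FPKM in cKO. Luminal keratins and myoepithelial genes were abundant in all 8 libraries, with summed levels of 4367 to 5670 FPKM for 5 luminal markers and 1710 to 2571 FPKM for 6 myoepithelial markers. No marker of another cell type was at 0 in all libraries. The mean was lower in cKO for 7 of 7 B and T cell markers, 5 of 5 macrophage markers, 4 of 4 endothelial markers, 5 of 5 fibroblast markers, 5 of 6 red blood cell markers and 0 of 4 adipocyte markers. cKO replicate 3 stood apart from the other cKO libraries. It had the lowest level of all 8 libraries for 5 of 5 macrophage markers, 4 of 4 endothelial markers, 4 of 5 fibroblast markers and 5 of 7 B and T cell markers. The summed macrophage markers were 104 FPKM there, 135 to 179 FPKM in the other cKO libraries and 168 to 245 FPKM in the controls. The summed fibroblast markers were 195 FPKM there, at least 284 FPKM in the other cKO libraries and 282 to 578 FPKM in the controls. The part of these cells in the results below was not tested, and the counts and medians below are given with and without this library.

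Promoter sequences are shown because most of these genes share a short DNA element that their selection did not use. RefSeq promoter windows of GRCm38.p6, from 250 bases before to 50 bases after each start, were at hand for 33 of the 42 genes. The E2F element was searched as the letters TTCCCGC or as TTCGCGC, and also as the letters TTGCCGC or as TTGGCGC, on both strands. It was present for 22 of the 33 genes (66.7%), against 10.9% of all 27025 genes with such a window and 19.1% of the 10116 of them that were among the genes tested here. Among tested genes with a window in the middle GC range of these genes (54% to 65.7%), 17.9% held the element. Stretches of 180 bases upstream of the start follow for 6 genes, 5 with the element and Pcna without it, with the E2F letters in capitals and the strand of the gene given.

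Mcm5 (chr8:75109329-75109508, plus strand): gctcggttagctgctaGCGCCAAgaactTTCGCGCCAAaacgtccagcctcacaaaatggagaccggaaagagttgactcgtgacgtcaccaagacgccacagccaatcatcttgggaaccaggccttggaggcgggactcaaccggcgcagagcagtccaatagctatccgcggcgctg
Mcm6 (chr1:128359706-128359885, minus strand): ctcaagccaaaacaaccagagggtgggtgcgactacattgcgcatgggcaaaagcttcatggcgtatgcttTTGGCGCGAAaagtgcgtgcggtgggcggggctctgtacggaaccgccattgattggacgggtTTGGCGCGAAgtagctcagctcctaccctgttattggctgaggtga
Mcm7 (chr5:138171884-138172063, minus strand): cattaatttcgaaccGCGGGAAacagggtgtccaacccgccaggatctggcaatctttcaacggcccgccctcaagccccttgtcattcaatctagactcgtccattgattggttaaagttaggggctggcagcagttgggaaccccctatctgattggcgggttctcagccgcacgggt
Chaf1a (chr17:56040236-56040415, plus strand): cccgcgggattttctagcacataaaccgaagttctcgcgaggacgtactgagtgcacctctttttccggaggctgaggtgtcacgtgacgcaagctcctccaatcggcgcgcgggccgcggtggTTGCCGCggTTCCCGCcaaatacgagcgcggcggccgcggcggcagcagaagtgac
Uhrf1 (chr17:56303157-56303336, plus strand): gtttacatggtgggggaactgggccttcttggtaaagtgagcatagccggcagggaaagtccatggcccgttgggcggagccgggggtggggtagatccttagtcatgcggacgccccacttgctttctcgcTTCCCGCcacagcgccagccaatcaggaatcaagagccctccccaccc
Pcna (chr2:132253181-132253360, minus strand): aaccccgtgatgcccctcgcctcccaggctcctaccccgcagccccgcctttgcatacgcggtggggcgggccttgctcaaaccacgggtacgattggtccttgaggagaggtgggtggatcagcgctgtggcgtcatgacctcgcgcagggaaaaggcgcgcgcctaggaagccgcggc

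Mcm6, a subunit of the Mcm2-7 ring, held 4 matches within this stretch, arranged as 2 overlapping pairs that read on both strands. Mcm5, another subunit of the ring, held 3 matches, and Chaf1a, the large subunit of the histone chaperone, held 2 matches within 60 bases of the start. The other genes with a match were Orc1, Cdc6, Cdt1, Mcm3, Gins3, Pola1, Prim1, Pold1, Rfc3, Rfc4, Fen1, Lig1, Rrm1, Rrm2, Chaf1b, Dnmt1 and E2f2, besides Mcm7 and Uhrf1 shown above. Those with a window and no match were Orc6, Mcm2, Mcm10, Cdc45, Pola2, Pcna, Rfc5, Tyms, Tk1, Ccne1 and E2f1, and a gene without these letters in this window may hold the element elsewhere or in another spelling. The CCAAT box (CCAAT, both strands) was in 60.6% of the 33 genes and 42.3% of the tested genes, and its reverse reading ATTGG can share bases with TTGGCGC. The CHR element (TTTGAA, both strands), known from mitotic genes, was in 18.2% of the 33 genes and 14.6% of the tested genes. In a list of 22 mitosis genes, 17 of which had a window, the order was the reverse, with the E2F element in 17.6% and the CHR element in 64.7%. The E2F element was in 17 of the 34 other replication genes with a window and in 7 of the 14 G1 control genes with a window, both lists of further cell cycle genes. A match of letters is a description and does not show that a factor binds there.

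**Figure D1:**
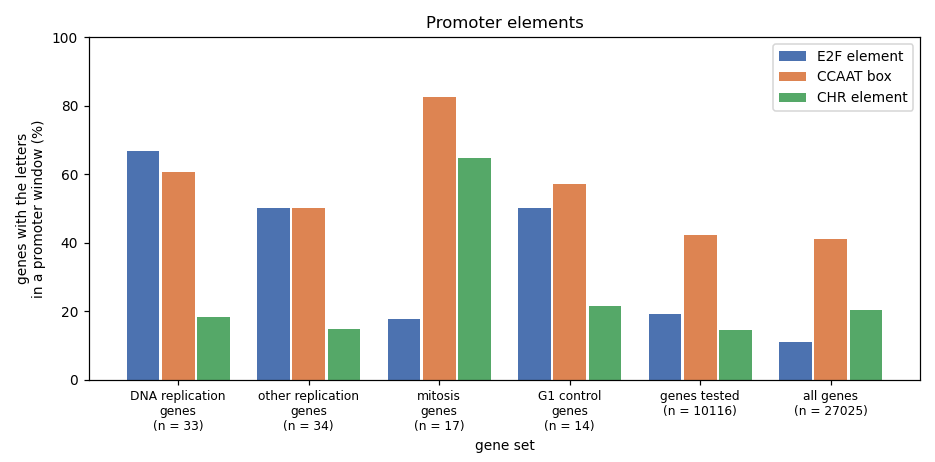
Share of genes (%) with an E2F element, a CCAAT box or a CHR element in a RefSeq promoter window, for the DNA replication genes, 3 other cell cycle lists, the genes tested and all genes, with the number of genes under each set. The E2F bar is at 66.7% for the DNA replication genes, at 17.6% for the mitosis genes and between these for the other replication genes (17 of 34) and the G1 control genes (7 of 14), and the CHR bar is at 18.2% for the DNA replication genes and 64.7% for the mitosis genes.

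Most replication genes had a lower mean in cKO, by small amounts, and none passed adjustment with all 8 libraries and no block. Of the 42 genes, all of which passed the filter of a mean of 0.5 FPKM, 38 had a lower mean in cKO than in control, where 49.8% of the 15143 genes tested were lower. The median log2 difference, cKO minus control, was -0.15 on the scale of log2(FPKM + 1), against 0.00 over all genes tested. By limma, 7 genes were lower at an unadjusted p under 0.05 and 0 were higher, where 7.53% of all genes tested were lower and 8.85% were higher. The 7 were E2f1, Mcm7, Lig1, Pcna, Mcm3, Gins2 and Mcm6, of which the first 5 stayed under an unadjusted p of 0.05 in all 20 alternatives run, each library left out included. None of the 42 passed an adjusted p under 0.05, where 0.304% of all genes tested were lower and 0.588% were higher, and the smallest adjusted p was 0.0996. limma-voom on the reads behind the FPKM gave 10 genes lower and 0 higher without adjustment (8.02% and 8.93% of all genes tested), and 0 after adjustment (0.674% lower and 0.991% higher). In 2 genes, Mcm7 and E2f1, all 4 cKO values lay under all 4 control values, which is 4.76% of the 42 and near the 4.6% of all genes tested. Scaled to the same sum per library, 12 of the 42 were lower without adjustment, where 10.9% of all genes tested were, and the share of lower genes among all calls moved from 46.0% to 67.8%.

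**Figure D2:**
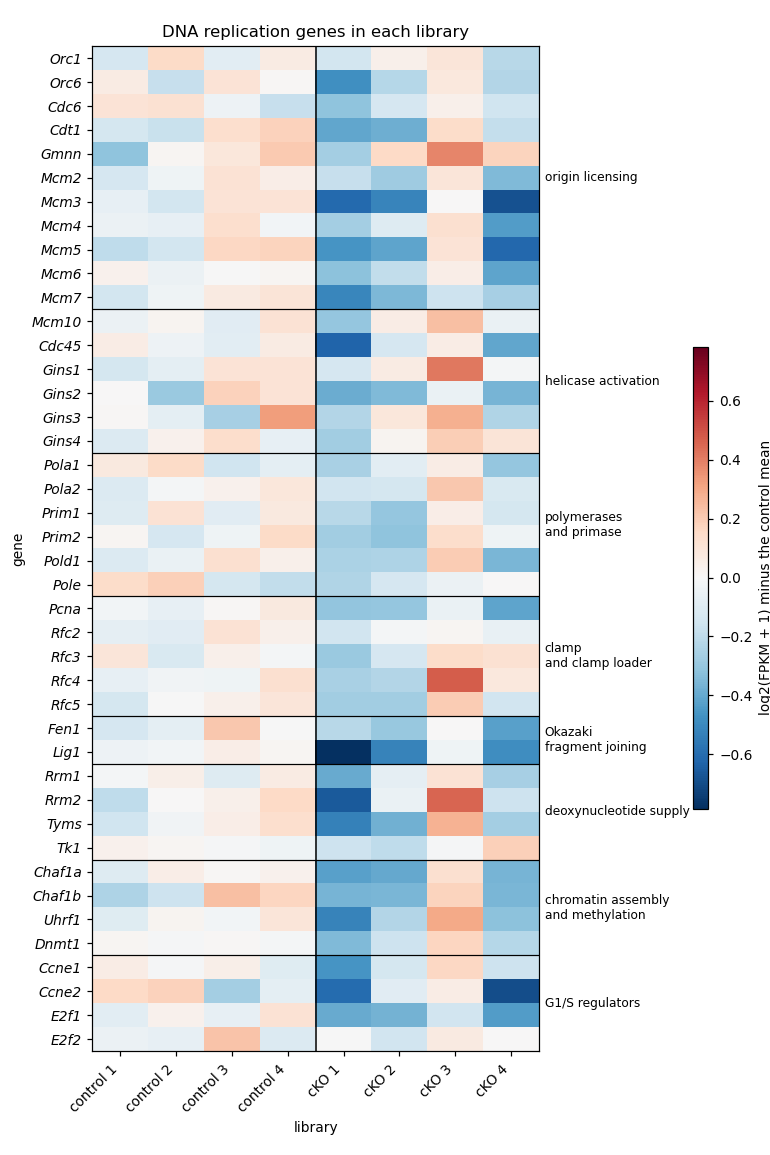
Level of each of the 42 DNA replication genes (rows, grouped by role) in each library (columns), as log2(FPKM + 1) minus the mean of the 4 control libraries, blue for lower and red for higher. cKO replicates 1, 2 and 4 are mostly blue, with medians of -0.31, -0.20 and -0.23, and cKO replicate 3 is mostly at or above the control mean, with a median of 0.11.

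The difference was carried by cKO replicates 1, 2 and 4. In 24 of the 42 genes these 3 libraries were all below every control library, where 7.76% of all genes tested did so. In 0 genes were they all above, where 8.88% of all genes tested did so. cKO replicate 3 was the highest of the 4 cKO libraries in 40 genes, Pole and Tk1 being the exceptions, where 26.9% of all genes tested had their highest cKO value there. It was the highest of all 8 libraries in 17 genes, where 13.7% of all genes tested were, and it was at or above the control mean in 34, where 51.0% of all genes tested were. The summed level of the 42 genes was 324, 328, 349 and 357 FPKM in control replicates 1 to 4 and 252, 282, 365 and 269 FPKM in cKO replicates 1 to 4. The spread was thus wider in cKO than in control for 38 of the 42 genes, where 53.0% of all genes tested were wider, and the median SD on the log2 scale was 0.22 in cKO and 0.11 in control.

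Without cKO replicate 3, 41 of the 42 genes had a lower mean in cKO, where 50.7% of all genes tested were lower, and the median log2 difference was -0.26. By limma, 25 were then lower at an unadjusted p under 0.05, where 7.88% of all genes tested were, and 0 were higher, where 8.69% were. Mcm3 and Lig1 passed an adjusted p under 0.05 (0.0471 for both), where 0.198% of all genes tested passed as lower and 0.31% as higher. Leaving out any other single library gave 5 or 6 genes at an unadjusted p under 0.05 and 0 after adjustment. This library was singled out after the values were seen, so these counts describe how much 1 mouse decided and are no test of their own. The litter and library date of this mouse are not given in the sources used here.

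**Figure D3:**
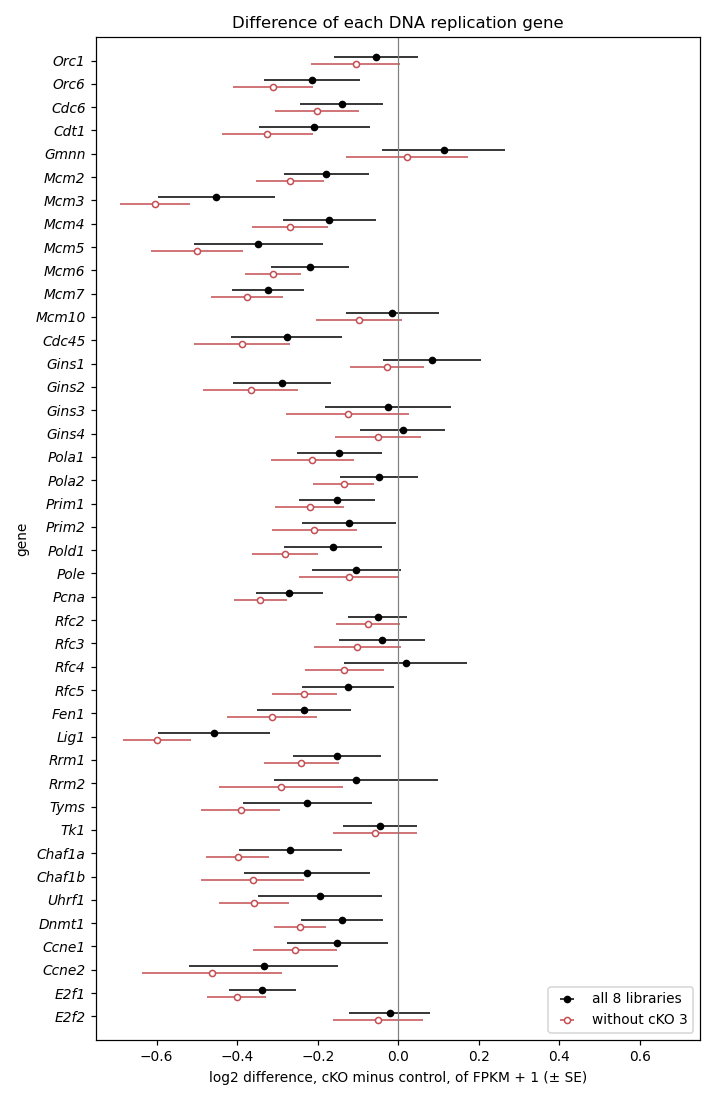
Log2 difference of FPKM + 1, cKO minus control, with its standard error, for each of the 42 DNA replication genes with all 8 libraries (filled points) and without cKO replicate 3 (open points). Points lie left of 0 for 38 genes with all libraries and for 41 without cKO replicate 3, and the farthest left are Mcm3 and Lig1.

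Origin licensing genes were lower in mean for 10 of 11 members, with a median log2 difference of -0.21, or 10 of 11 and -0.31 without cKO replicate 3. At an unadjusted p under 0.05, 3 were lower with all libraries and 8 without cKO replicate 3. For these and the other roles below, the share of all genes tested that were lower at this p was 7.53% with all libraries and 7.88% without cKO replicate 3. All 6 subunits of the Mcm2-7 helicase had a lower mean (median -0.27, or -0.34 without cKO replicate 3), and for each of the 6 subunits cKO replicates 1, 2 and 4 were below every control library. Mcm7 (ENSMUSG00000029730, chromosome 5, 138164583 to 138172422) was at 17.4, 18.8, 20.3 and 20.8 FPKM in control replicates 1 to 4 and at 13.2, 14.9, 17.1 and 15.9 FPKM in cKO replicates 1 to 4. The groups did not overlap, with cKO replicate 3 nearest to the controls, and the log2 difference was -0.32 with a standard error of 0.09 (unadjusted p = 0.00565, adjusted p = 0.130). The adjusted p of Mcm7 was 0.0322 by limma with replicates 1 and 2 against 3 and 4 as a block. It was 0.0210 by limma-voom with the replicate number as a block. On the other strand Mcm7 shares 321 bases of exon with Ap4m1 (up to 516 reads) and 64 with Cops6 (up to 1093 reads), where Mcm7 had at least 1085 reads. Mcm3 (ENSMUSG00000041859, chromosome 1, 20802968 to 20820312) was at 14.5, 13.7, 16.4 and 16.5 FPKM in control and 9.61, 10.3, 15.3 and 9.11 FPKM in cKO. Here cKO replicate 3 lay within the control range and the other 3 below it, and the log2 difference was -0.45 with a standard error of 0.15 (unadjusted p = 0.0129, adjusted p = 0.176), or -0.60 without cKO replicate 3. Mcm6 was at 24.6, 23.2, 23.9 and 24.2 FPKM in control and 19.0, 20.8, 24.9 and 17.7 FPKM in cKO. Its control libraries lay close together and cKO replicate 3 was the highest of the 8, so the log2 difference of -0.22 passed at an unadjusted p of 0.0498 and failed adjustment (0.305). The call for Mcm6 was lost at a pseudocount of 0.1 (unadjusted p = 0.0504), at a filter of a mean of 1 FPKM (0.0501), with no trend (0.0585) and without any 1 library other than cKO replicate 3 (up to 0.133). Mcm5 showed a difference of a size between these, -0.35 with a standard error of 0.16 (unadjusted p = 0.0587, adjusted p = 0.324), and Mcm2 (-0.18) and Mcm4 (-0.17) showed smaller ones. The unadjusted p of Mcm5 was 0.0358 by limma-voom and 0.00244 by limma without cKO replicate 3.

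Of the 4 genes that load this ring, Orc6, Cdt1, Cdc6 and Orc1, none was lower at an unadjusted p under 0.05 with all 8 libraries at the deposited scaling and no block. By limma, Orc6 and Cdt1 were lower without cKO replicate 3 (log2 differences -0.31 and -0.32, unadjusted p = 0.0143 and 0.0202), without both libraries numbered 3 (unadjusted p = 0.0360 and 0.0493) and when scaled to the same sum per library (unadjusted p = 0.0371 and 0.0448). Cdt1, which brings the ring to the origin, was at 7.96, 7.72, 9.79 and 10.2 FPKM in control and 6.42, 6.56, 9.87 and 7.67 FPKM in cKO, with cKO replicate 3 among the upper controls and the other 3 under the control range (log2 difference -0.21, unadjusted p = 0.164). Orc6, a subunit of the origin recognition complex, differed by -0.21 (unadjusted p = 0.107) and shares 171 bases of exon with Vps35 on the other strand, which had up to 2675 reads. Cdc6, the ATPase that helps to load the ring, differed by -0.14, and Orc1, the largest subunit of the origin complex, by -0.06. Gmnn, which encodes geminin, the inhibitor that binds Cdt1 and blocks relicensing, was the 1 licensing gene with a higher mean in cKO. Its level was 5.79, 7.53, 7.99 and 8.73 FPKM in control and 6.01, 8.40, 10.02 and 8.53 FPKM in cKO. The groups overlapped, and the log2 difference was 0.11 with a standard error of 0.15 (unadjusted p = 0.480).

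**Figure D4:**
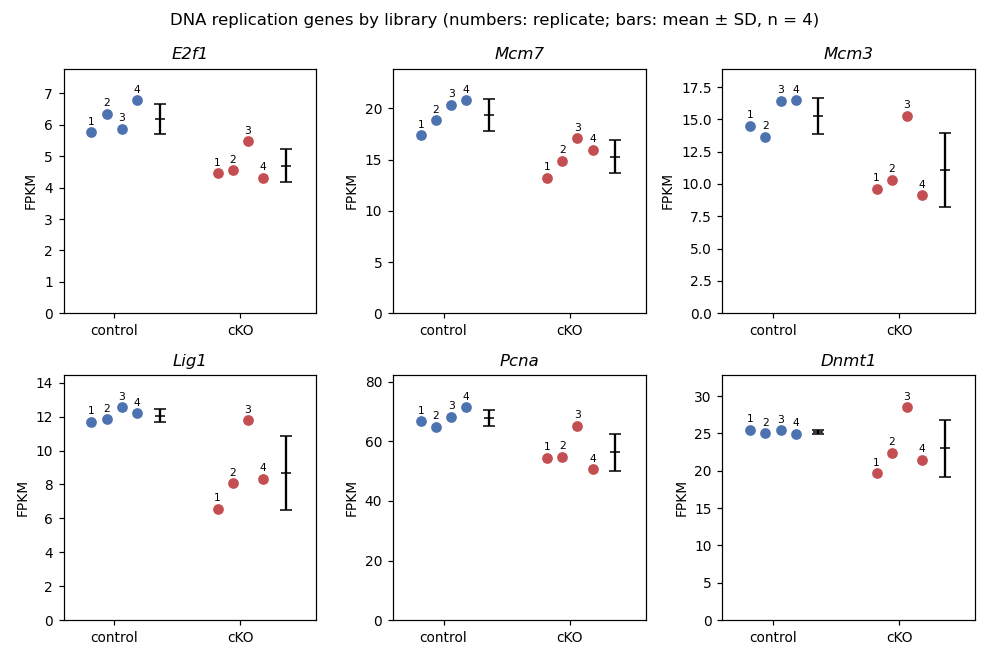
FPKM of 6 DNA replication genes in each library, control in blue and cKO in red, with the replicate number above each point and the mean ± SD (n = 4) as a black bar. Every cKO point is below every control point for E2f1 and Mcm7, and cKO replicate 3 lies within or above the control range for Mcm3, Lig1, Pcna and Dnmt1.

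The genes that activate the helicase were lower in mean for 4 of 6 members, with a median log2 difference of -0.02 and 1 lower at an unadjusted p under 0.05. Without cKO replicate 3, 6 of 6 were lower in mean, with a median of -0.11, and Cdc45 and Gins2 were lower at an unadjusted p under 0.05. Gins2, a GINS subunit, was at 2.61, 1.94, 3.07 and 2.89 FPKM in control and 1.74, 1.83, 2.47 and 1.80 FPKM in cKO. cKO replicate 3 lay within the control range and the other 3 under it, and the log2 difference was -0.29 with a standard error of 0.12 (unadjusted p = 0.0429, adjusted p = 0.286). Without control replicate 1, 3 or 4 or without cKO replicate 1, 2 or 4, the unadjusted p of Gins2 was 0.0749 to 0.112, and with no filter on low values it was 0.0529. Gins2 shares 2758 bases of exon with Gse1 on the other strand, and Gse1 differed by 0.16 (unadjusted p = 0.134). Strand-specific counting is not stated and how reads in shared exon were assigned was not tested, so the level of Gins2 is uncertain. Cdc45, the helicase cofactor, was at 4.08, 3.75, 3.61 and 4.10 FPKM in control and 2.16, 3.46, 4.08 and 2.69 FPKM in cKO, a log2 difference of -0.28 (unadjusted p = 0.0768). By limma-voom the unadjusted p of Cdc45 was 0.0493. Cdc45 shares 209 bases of exon with Ufd1 on the other strand (up to 820 reads, where Cdc45 had at least 146). The other GINS subunits gave log2 differences of 0.08 for Gins1, -0.02 for Gins3 and 0.01 for Gins4, so the signs within this complex were mixed with all 8 libraries. Without cKO replicate 3 the differences of Gins1 to Gins4 were -0.03, -0.37, -0.13 and -0.05, all of one sign. Mcm10, which helps to fire the loaded helicase, differed by -0.01 with a standard error of 0.12. The difference between subunits was not tested.

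Polymerase and primase genes were lower for 6 of 6 members, with a median log2 difference of -0.13 and 0 at an unadjusted p under 0.05. The median was -0.21 without cKO replicate 3, and Pold1 and Prim1 were then lower at an unadjusted p under 0.05. With all 8 libraries differences ranged from -0.05 for Pola2, the regulatory subunit of polymerase alpha, to -0.16 for Pold1, the catalytic subunit of polymerase delta. Pold1 was at 3.72, 3.91, 4.54 and 4.23 FPKM in control and 3.29, 3.31, 4.85 and 2.97 FPKM in cKO. cKO replicate 3 was the highest of the 8 and the other cKO libraries the lowest 3, and without cKO replicate 3 the log2 difference was -0.28 (unadjusted p = 0.00895). Prim1, the catalytic primase subunit, differed by -0.15, Prim2, its partner, by -0.12, and Pola1, the catalytic subunit of polymerase alpha, by -0.15. Pole, the catalytic subunit of polymerase epsilon, had another order of libraries, at 1.77, 1.86, 1.28 and 1.20 FPKM in control and 1.13, 1.29, 1.43 and 1.51 FPKM in cKO. Its highest cKO value was in replicate 4, control replicates 1 and 2 were the highest of the 8, and the log2 difference was -0.10 (unadjusted p = 0.368).

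Pcna, the sliding clamp, had the highest level of the 42 genes. It lies on chromosome 2 from 132249162 to 132253314 (ENSMUSG00000027342) and was at 66.7, 64.9, 68.3 and 71.4 FPKM in control and 54.5, 54.8, 65.2 and 50.6 FPKM in cKO. The means were 67.8 ± 2.76 FPKM (SD, n = 4) and 56.3 ± 6.27 FPKM (SD, n = 4), with 3 cKO libraries below every control and cKO replicate 3 within the control range. The log2 difference was -0.27 with a standard error of 0.08 (unadjusted p = 0.00990, adjusted p = 0.158). The processed pseudogene Pcna-ps2 was listed at 1.10 to 2.75 FPKM. How many reads fit both Pcna and Pcna-ps2 was not tested. The subunits of replication factor C, the clamp loader, were closer to the control mean, at -0.05 for Rfc2, -0.04 for Rfc3, 0.02 for Rfc4 and -0.13 for Rfc5. For Rfc4, cKO replicate 3 reached 9.32 FPKM, where the other cKO libraries were at 5.24 to 6.85 FPKM and the controls at 6.10 to 7.09 FPKM, and the difference was -0.13 without it. On the other strand Rfc4 shares 194 bases of exon with Eif4a2, which had up to 7786 reads where Rfc4 had at least 135, and Rfc5 shares 499 with Wsb2, which had up to 3136 reads where Rfc5 had at least 255, so the levels of both are uncertain. Over Pcna and the loader, 4 of 5 genes were lower in mean with a median of -0.05, or 5 of 5 with a median of -0.13 without cKO replicate 3, when Pcna and Rfc5 were lower at an unadjusted p under 0.05.

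Both genes that complete the lagging strand were lower in mean, with a median log2 difference of -0.35, or -0.46 without cKO replicate 3, when both were lower at an unadjusted p under 0.05. Lig1, the ligase that seals Okazaki fragments, had the lowest log2 difference of the 42 genes and lies on chromosome 7 from 13277283 to 13311433 (ENSMUSG00000056394). Its level was 11.7, 11.8, 12.5 and 12.2 FPKM in control and 6.58, 8.07, 11.8 and 8.31 FPKM in cKO. Control libraries were within 1 FPKM of each other, cKO replicate 3 lay among them, and the other 3 cKO libraries were well below. The log2 difference was -0.46 with a standard error of 0.14 (unadjusted p = 0.00920, adjusted p = 0.155), or -0.60 without cKO replicate 3. Lig1 shares 247 bases of exon with Zswim9. Fen1, the flap endonuclease that trims the fragments, was at 0.882, 0.953, 1.38 and 1.06 FPKM in control and 0.770, 0.676, 1.07 and 0.534 FPKM in cKO (log2 difference -0.23, unadjusted p = 0.0782). It had only 24 to 56 reads per library and shares exon bases with genes on the other strand, 130 with Tmem258 (up to 671 reads) and 1909 with Gm10143 (up to 15 reads), so its level is uncertain.

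The genes of deoxynucleotide supply were lower for 4 of 4 members, with a median log2 difference of -0.13 and 0 at an unadjusted p under 0.05. The median was -0.27 without cKO replicate 3, and Tyms (unadjusted p = 0.00421) and Rrm1 (unadjusted p = 0.0314) were then lower. Tyms, which makes thymidylate, was at 3.51, 3.93, 4.22 and 4.51 FPKM in control and 2.48, 2.88, 5.07 and 3.17 FPKM in cKO (log2 difference -0.23, unadjusted p = 0.195). Its cKO libraries held both the lowest 3 values and the highest. Rrm2, the regulated subunit of ribonucleotide reductase, was at 9.04, 10.6, 10.9 and 11.8 FPKM in control and 6.30, 10.2, 14.8 and 9.31 FPKM in cKO. Its cKO libraries lay on both sides of the controls, and its log2 difference of -0.10 had a standard error of 0.20, the largest of the 42. Rrm1, the large subunit of the same enzyme, differed by -0.15, and Tk1, thymidine kinase of the salvage route, by -0.05.

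The 4 genes of chromatin assembly and methylation on new DNA were lower in mean, with a median log2 difference of -0.21 and 0 at an unadjusted p under 0.05, or a median of -0.36 and all 4 at an unadjusted p under 0.05 without cKO replicate 3. In each of them cKO replicates 1, 2 and 4 were below every control library. Chaf1a, the large subunit of chromatin assembly factor 1, was at 1.75, 2.07, 1.98 and 2.03 FPKM in control and 1.19, 1.24, 2.22 and 1.29 FPKM in cKO. cKO replicate 3 was the highest of the 8, and the log2 difference was -0.27 (unadjusted p = 0.0651), or -0.40 without that library (unadjusted p = 0.000974). By limma-voom with all 8 libraries the unadjusted p of Chaf1a was 0.0246. Chaf1a shares 4648 of its 8854 bases of exon with Ubxn6 on the other strand. Ubxn6 differed by -0.07 and had up to 267 reads where Chaf1a had at least 181, so the level of Chaf1a is uncertain. Chaf1b, the middle subunit, differed by -0.23 (unadjusted p = 0.183). Uhrf1, which reads hemimethylated DNA, was at 10.7, 11.7, 11.3 and 12.4 FPKM in control and 7.70, 9.65, 14.3 and 9.01 FPKM in cKO, a log2 difference of -0.19 (unadjusted p = 0.239). Dnmt1, the maintenance methyltransferase, was at 25.5, 25.03, 25.4 and 24.98 FPKM in control and 19.7, 22.4, 28.5 and 21.5 FPKM in cKO. The control mice were nearly alike, whereas the cKO mice lay on both sides of them, so that a log2 difference of -0.14 did not pass (unadjusted p = 0.202).

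All 4 regulators of the entry into S phase had lower means, with a median log2 difference of -0.24 and E2f1 lower at an unadjusted p under 0.05. The median was -0.33 without cKO replicate 3, and E2f1, Ccne1 and Ccne2 were then lower at an unadjusted p under 0.05. E2f1, the transcription factor that activates many replication genes, had the smallest p of the 42 and lies on chromosome 2 from 154559407 to 154569892 (ENSMUSG00000027490). Its level was 5.76, 6.35, 5.87 and 6.77 FPKM in control and 4.45, 4.56, 5.47 and 4.30 FPKM in cKO. The groups did not overlap, and cKO replicate 3 was again the closest to the controls. The log2 difference was -0.34 with a standard error of 0.08 (unadjusted p = 0.00287, adjusted p = 0.0996). E2f2, its close relative, was near the filter at 0.600 to 1.01 FPKM in control and 0.559 to 0.813 FPKM in cKO and differed by -0.02. Ccne2, a cyclin E, was at 3.60, 3.67, 2.42 and 2.91 FPKM in control and 1.70, 2.88, 3.28 and 1.54 FPKM in cKO (log2 difference -0.33, standard error 0.19, unadjusted p = 0.105). It shares 609 bases of exon with Ints8, which had up to 1043 reads where Ccne2 had 100 to 222. Ccne1, the other cyclin E, differed by -0.15 (unadjusted p = 0.260).

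A list of 38 other replication genes, of which 37 passed the filter, had 27 lower means and a median log2 difference of -0.06, with 2 lower and 0 higher at an unadjusted p under 0.05 (7.53% and 8.85% of all genes tested). These 2 were Slbp and Dck, and in both all cKO values lay under all control values, as in 4.6% of all genes tested. Slbp, which binds the stem-loop of replication-dependent histone mRNAs, was at 7.54, 7.19, 7.69 and 7.71 FPKM in control and 6.24, 6.45, 6.27 and 6.35 FPKM in cKO (log2 difference -0.22, standard error 0.05, unadjusted p = 0.00273, adjusted p = 0.0979). Dck, the deoxycytidine kinase of nucleotide salvage, was at 4.07, 3.77, 3.69 and 3.78 FPKM in control and 3.12, 3.29, 2.93 and 2.62 FPKM in cKO (log2 difference -0.28, standard error 0.07, unadjusted p = 0.00426, adjusted p = 0.116). In these 2 genes cKO replicate 3 lay among the other cKO libraries, unlike in nearly all of the 42. Without cKO replicate 3, 29 of the 37 had lower means, with a median of -0.14, and 9 were lower at an unadjusted p under 0.05 (7.88% of all genes tested).

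Of the mitosis genes, 7 of 21 tested had lower means, where 49.8% of all genes tested did, with a median log2 difference of 0.03. At an unadjusted p under 0.05, 0 were lower and 0 were higher, where 7.53% and 8.85% of all genes tested were. The direction of the means turned without cKO replicate 3, when 14 of the 21 were lower (50.7% of all genes tested), with a median of -0.04. At an unadjusted p under 0.05, 2 were then lower (7.88% of all genes tested). Without cKO replicate 1, 2 were higher at that p (1241 of 15147 genes tested). Mki67, which encodes the proliferation antigen Ki67 that the study stained, was at 11.3, 14.2, 9.99 and 13.4 FPKM in control and 9.44, 13.7, 14.6 and 13.2 FPKM in cKO (log2 difference 0.05, standard error 0.15, unadjusted p = 0.744). By staining of Ki67 and Cyclin D1, the study reported fewer proliferative cells in cKO than in control at this day. Staining counts cells by protein on sections, whereas these values are RNA in bulk, so the measures are unlike. cKO replicate 3 was the highest of the 8 libraries in 15 of the 21 mitosis genes, as in 17 of the 42 replication genes, and at or above the control mean in all 21. The median of the mitosis genes against the control mean was -0.42, 0.08, 0.26 and 0.08 in cKO replicates 1 to 4, whereas that of the 42 replication genes was -0.31, -0.20, 0.11 and -0.23. Both medians were thus below 0 in cKO replicate 1 and above 0 in cKO replicate 3, and they differed in sign in cKO replicates 2 and 4. The difference between the lists was not tested.

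Of 21 genes that control G1, 12 had lower means, with a median log2 difference of -0.02, and Cdkn1a alone was lower at an unadjusted p under 0.05, where 49.8% of all genes tested had lower means and 7.53% were lower at that p. Without cKO replicate 3, 13 had lower means, with a median of -0.05, and 3 were lower at an unadjusted p under 0.05 (50.7% and 7.88% of all genes tested). Cdkn1a encodes p21, an inhibitor of cyclin-dependent kinases, and was at 92.4, 80.4, 105 and 108 FPKM in control and 77.8, 69.5, 88.9 and 74.6 FPKM in cKO. The groups overlapped in cKO replicate 3 and control replicate 2, and the log2 difference was -0.30 with a standard error of 0.11 (unadjusted p = 0.0233, adjusted p = 0.223). The call was lost without control replicate 3 or 4 or cKO replicate 2 or 4 (Cdkn1a unadjusted p = 0.0538 to 0.0669). The adjusted p of Cdkn1a was 0.0420 to 0.402 over the alternatives run, and the lowest came from limma-voom with the replicate number as a block. Ccnd1, cyclin D1 of early G1, which the study also stained, was at 30.3, 34.7, 29.5 and 28.1 FPKM in control and 38.1, 31.1, 35.4 and 27.1 FPKM in cKO (log2 difference 0.09, standard error 0.11, unadjusted p = 0.420).

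**Figure D5:**
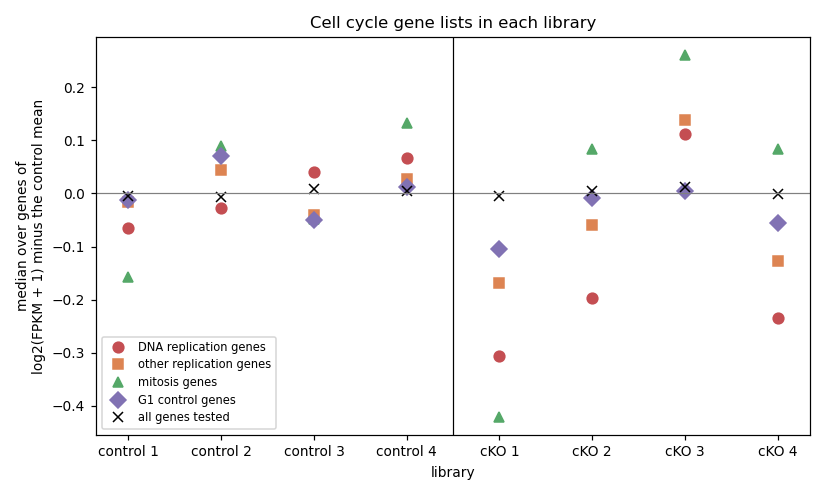
Median over each gene list of log2(FPKM + 1) minus the control mean, in each of the 8 libraries, for the DNA replication genes, 3 other cell cycle lists and all genes tested. The DNA replication genes are at -0.31, -0.20, 0.11 and -0.23 in cKO replicates 1 to 4, and the mitosis genes are at -0.42, 0.08, 0.26 and 0.08.

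The 42 genes varied together across the libraries. The correlation of each gene with the mean of all 42, each standardised, over the 8 libraries had a median of 0.83 and was above 0.5 for 39 genes, from 0.26 for Pole to 0.98 for Uhrf1. Each gene is part of that mean and the libraries fall into 2 groups, so these values describe the pattern and carry no test. Outside the lists, the 10 genes most like this mean had correlations of 0.960 to 0.983 over the 8 libraries, among the 15143 tested. They were Cavin3, Cdca5, Ercc6l, Exo1, Tysnd1, the lncRNA Has2os, Vrk1, Hat1, Mis18a and Rad51ap1. Cdca5, which encodes the cohesin factor sororin, was at 4.42, 4.64, 4.65 and 5.26 FPKM in control and 2.21, 2.88, 6.39 and 3.39 FPKM in cKO. Hat1, which acetylates newly made histone H4, was at 14.7, 15.04, 15.6 and 15.2 FPKM in control and 11.3, 14.1, 17.0 and 12.9 FPKM in cKO. Cavin3, a protein of caveolae, was at 38.4, 36.7, 39.8 and 42.9 FPKM in control and 27.3, 30.2, 44.9 and 30.6 FPKM in cKO. In these 3 genes cKO replicate 3 was the highest of the 8 libraries and the other cKO libraries were below every control.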

How the data were processed

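RNA-seq libraries from 4 control and 4 cKO mice were analysed. The authors mapped reads to GRCm38 with Hisat2, and the deposited table holds FPKM calculated by the authors. The submitters' processing notes name StringTie 1.3.3b, featureCounts 1.5.0-p3 and the build mm9, but 99.68% of the 55394 identifiers found in GENCODE vM21 have its GRCm38 coordinates. Strand-specific counting is not stated in the sources used here. FPKM multiplied by gene length gave whole reads for 100% of the values (tolerance 0.01 of a read), and the deposited FPKM already include median-of-ratios size factors.

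FPKM are not counts, so log2(FPKM + 1) was tested with limma 3.58.1 in R 4.3.3 (empirical Bayes with trend, two-sided, Benjamini-Hochberg adjustment over all genes kept), and 15143 genes whose mean FPKM reached 0.5 were kept. Standard errors and p-values come from this model over 4 libraries per group. Alternatives were a pseudocount of 0.1, other scalings, other filters, no trend, limma-voom on recovered reads, blocks, and each library left out. limma-voom with a block and the removal of both libraries numbered 3 were added after the values were seen. The 42 genes, their roles and the comparison lists were chosen with earlier results of these data known. Named genes are the 42, genes of the other lists with an unadjusted p under 0.05, Mki67, Ccnd1, Bmpr1a and the 10 genes outside the lists most correlated with the mean of the 42. The 6 promoter stretches printed were chosen after their matches were seen. Other marker lists were adipocyte markers, with sums of 77.5 to 119 FPKM in control and 98.3 to 130 FPKM in cKO, and red blood cell markers, with 22.5 to 30.0 and 14.5 to 28.0 FPKM, besides those given with the results. The endothelial markers summed to 61.9 to 70.8 and 44.7 to 69.1 FPKM and the B and T cell markers to 4.34 to 31.9 and 2.41 to 4.39 FPKM. The fit was tested on simulated data. No 2 libraries of the same group agreed within counting noise. Depth was 16123108 to 19896988 reads on genes per library, and precision is limited by 4 mice per group.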

Additional observations from a re-analysis of the deposited data

Results flagged for a closer look

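Among 116 groups of 4 libraries (control and cKO for each of the 58 genes named), 5 had 1 library far from the other 3 by Dixon's criterion at the 95% level, where chance gives about 5.8. In 4 replication genes it was cKO replicate 3. Gins2 was at 2.47 FPKM there and 1.74 to 1.83 FPKM in the other cKO libraries. Pola2 was at 3.26 FPKM against 2.31 to 2.39 FPKM, Chaf1a at 2.22 FPKM against 1.19 to 1.29 FPKM, and Chaf1b at 4.09 FPKM against 2.49 to 2.51 FPKM. Ercc6l was at 2.96 FPKM in control replicate 4 and 2.69 to 2.73 FPKM in the other control libraries.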

How the results depend on the processing

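Of the 42 replication genes, 33 kept the sign of their difference in each of the 20 alternatives that kept them. The filter of a mean of 1 FPKM kept 39 of the 42 and left out Orc1, Fen1 and E2f2. With all 8 libraries 7 were lower at an unadjusted p under 0.05, with 12 after scaling to the same sum per library, 11 with limma-voom plus the replicate block, and 23 without both libraries numbered 3. Under these settings 7.53%, 10.9%, 10.8% and 6.66% of all genes tested were lower, and the shares were 9.12% with the milk genes left out of the sum, 8.02% with limma-voom, and 6.06% to 7.88% with 1 library left out. With 1 library left out the count ran from 5 to 25, the median log2 difference from -0.26 (without cKO replicate 3) to -0.10 (without cKO replicate 1), and the count at an adjusted p under 0.05 from 0 to 2. After adjustment, 1 gene (Mcm7) was lower with replicates 1 and 2 against 3 and 4 as a block and 2 (Mcm7 and Lig1) with limma-voom and the replicate block, against 0 with all libraries and no block. Same-numbered libraries deviated together only weakly (correlations of 0.08 to 0.14 over genes, 3 of 8 libraries nearest to their own number), and not every number was over 0.1, so the numbers were not taken to pair the mice. Replicates 1 and 2 deviated alike across the groups, as did replicates 3 and 4 (mean correlation 0.12 within and -0.12 across these sets), which the sources used here do not explain. Values were centred within each group first, which ties the mean across the sets to that within them, so it is no separate observation. Of all genes, 50 passed adjustment with the replicate block, 442 with the block by sets and 680 with limma-voom and the replicate block, against 135 without a block. The replicate block gave 9 replication genes without adjustment, where 9.55% of all genes tested were lower, and 0 after it. By limma with this block, Cdt1 (unadjusted p = 0.0351), Mcm5 (0.0323) and Fen1 (0.0455) were gained and Mcm6 was lost (0.0534). The block by sets, with 9.47% of all genes tested lower, gained Cdt1 (0.0241) and Mcm5 (0.0401) and lost Mcm6 (0.0557). The other replication genes gave 6 after scaling to the same sum, 4 with the milk genes left out of that sum, 4 with limma-voom and the block, 7 without both libraries numbered 3 and 2 to 9 with 1 library left out, against 2, each of 37. The mitosis genes gave 1 lower without both libraries numbered 3 and 0 to 2 with 1 left out, against 0. They gave 2 higher without cKO replicate 1, and 1 higher with the replicate block and with limma-voom plus this block (11.1% and 11.6% of all genes tested). The other replication genes gave 1 higher with these fits and with the block by sets (11.9%). The G1 control genes gave 1 higher without both libraries numbered 3 (7.53%). The G1 control genes gave 3 after scaling to the same sum, 2 with the milk genes left out of that sum, 2 with limma-voom, 2 without both libraries numbered 3 and 0 to 3 with 1 left out, against 1, each of 21. The causes were not tested.

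Differences near 0 changed sign. After scaling to the same sum, with the milk genes left out of that sum and without both libraries numbered 3, Gins4 was at -0.045, -0.019 and -0.0045 and Rfc4 at -0.036, -0.011 and -0.14. E2f2 was at 0.023 without both libraries numbered 3, and Mki67 at -0.0091 after scaling to the same sum and -0.10 without both libraries numbered 3. With 1 library left out, ranges that crossed 0 were -0.098 to 0.081 for Mcm10, -0.028 to 0.15 for Gins1, -0.13 to 0.084 for Gins3, -0.051 to 0.11 for Gins4, -0.10 to 0.043 for Rfc3, -0.13 to 0.11 for Rfc4, -0.29 to 0.081 for Rrm2, -0.12 to 0.0046 for Tk1, -0.058 to 0.053 for E2f2 and -0.036 to 0.17 for Mki67.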
